A study of Mus musculus with 12 samples.

Results

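The genes described here encode the machinery that makes microRNAs and the Argonaute proteins that carry them. The 10 genes taken were *Drosha*, *Dgcr8*, *Xpo5*, *Dicer1*, *Tarbp2*, *Prkra*, *Ago1*, *Ago2*, *Ago3* and *Ago4*, at every array probe annotated with 1 of these symbols. This gave 10 of the 19057 genes named on the array, at 21 of its 45281 probes. The levels come from hippocampal RNA of male C57BL/6J mice aged 12 weeks, 1 MouseWG-6 v2.0 array for each mouse. In the ethanol group, the dams of 6 mice drank ethanol between 0.5 and 8.5 dpc, and the 6 control mice were not exposed. The arrays lay on 2 chips, each with 3 ethanol-exposed mice (replicates 1 to 3 or 4 to 6) and 3 controls. The litters of the mice are not given in the labels, so the p-values measure the spread between these 12 mice only.

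A microRNA starts as a hairpin in a longer nuclear transcript. The nuclease Drosha and its RNA-binding partner Dgcr8 form the Microprocessor, which frees the hairpin. Exportin-5, the product of *Xpo5*, carries it to the cytoplasm, where Dicer, encoded by *Dicer1*, cuts away the loop with the help of the double-stranded RNA-binding proteins encoded by *Tarbp2* and *Prkra*. One strand is loaded into an Argonaute protein, which holds the target mRNA. *Ago2* is the only one of the mammalian Argonaute genes whose protein is known as an efficient slicer of fully matched targets. In hippocampal neurons the pathway is known for its part in synaptic plasticity.

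A substrate of the Microprocessor lies within 1 of the genes themselves, and its sequence is shown because it displays the features that the proteins act on. The hairpin *Mir1306* lies inside *Dgcr8* at chr16:18284239-18284317, minus strand (RefSeq, GRCm38.p6), and the Microprocessor is known to cut hairpins in the *Dgcr8* transcript. In the hairpin below, the capitals mark the arms that remain after Drosha and Dicer have cut. In the arms, the capitals mark the seed (bases 2 to 8), which pairs with targets in Argonaute. The levels of these microRNAs were not measured by the arrays.
Mir1306 hairpin: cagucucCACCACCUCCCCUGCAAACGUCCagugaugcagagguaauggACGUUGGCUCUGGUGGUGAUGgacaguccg
mmu-miR-1306-5p: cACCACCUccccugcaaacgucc
mmu-miR-1306-3p: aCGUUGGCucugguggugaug

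The genes were spread over 6 chromosomes of GRCm38.p6. *Ago3* (chr4:126326994-126431670), *Ago1* (chr4:126435012-126468707) and *Ago4* (chr4:126489487-126533586) were neighbours within 206.6 kb, whereas *Ago2* (chr15:73101625-73184947) stood apart on the chromosome that also carries *Drosha* (chr15:12824804-12935291) and *Tarbp2* (chr15:102516077-102523676). *Dicer1* was at chr12:104687740-104751968, *Dgcr8* at chr16:18253948-18289251, *Xpo5* at chr17:46202811-46243598 and *Prkra* at chr2:76609215-76648220. Promoter sequence (RefSeq, 250 bases before to 50 after the start) was held for 9 of the genes, with 2 entries for *Ago1*. These 10 promoters had 16 (*Prkra*) to 54 (*Ago4*) CG dinucleotides, where the median of all 32851 mouse promoters was 7. The TATA box letters TATAAA, searched on both strands, were in 0 of the 10 and in 13.6% of all promoters. The letters CGGAAG, which hold the core read by ETS factors, were in 5 of the 10 on either strand and in 16.9% of all promoters. The 5 were those of *Drosha*, *Dgcr8*, *Xpo5*, *Prkra* and *Ago3*. CGGAAG itself holds a CG, and neither motif was compared with promoters of like CG count. The 100 bases around the starts of the nuclease genes are shown because these proteins make the cuts of the pathway, with each CG in capitals. The *Drosha* stretch (chr15:12824765-12824864, plus strand) held 9 and the *Dicer1* stretch (chr12:104751903-104752002, minus strand) held 18, against 37 and 49 in their whole promoters.
Drosha: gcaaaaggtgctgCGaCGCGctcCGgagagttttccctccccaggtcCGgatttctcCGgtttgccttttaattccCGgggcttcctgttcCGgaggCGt
Dicer1: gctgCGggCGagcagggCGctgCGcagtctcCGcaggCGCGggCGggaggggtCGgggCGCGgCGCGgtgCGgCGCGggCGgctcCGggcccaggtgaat

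The groups were alike in the number of probes detected, 18729 to 20250 in ethanol-exposed mice and 18644 to 20268 in controls at a detection p under 0.05, the chance that negative control beads reach the signal. The chips were not, with 18644 to 19113 on chip 1 and 19492 to 20268 on chip 2. Arrays of chip 1 had median deposited signals of 111.3 to 127.5, those of chip 2 of 94.7 to 102.7. On chip 1 these medians were higher in every control (115.7 to 127.5) than in any ethanol-exposed mouse (111.3 to 113), while on chip 2 the groups overlapped. Of 15 hippocampal neuron markers, 12 could be tested, with the excitatory neuron genes *Camk2a* and *Slc17a7* at mean log2 signals of 13.66 and 12.50. Markers of choroid plexus, a tissue next to the hippocampus, differed widely between mice, and the mean log2 signal of the 7 tested ran from 6.52 to 9.38 in ethanol-exposed mice and from 6.73 to 10.94 in controls. All 7 had negative differences (median -0.76), none past an unadjusted p of 0.05. Of 6 ependymal markers 5 had negative differences (3 past an unadjusted p of 0.05), as had 7 of 8 for astrocytes (2 past it), 7 of 9 for microglia (2 past it), 6 of 7 for oligodendrocytes (1 past it) and 4 of 4 for blood cells (0 past it). Of the 12 neuron markers 7 had positive and 5 negative differences (0 past it, median 0.06). Over all named genes tested, 705 of 10835 (6.51%) passed this threshold in either direction. The 6 markers tested for thalamus and habenula had a median difference of 0.01. They included *Cplx1* at a mean log2 signal of 14.38, above that of *Camk2a*, so this list may not mark those regions alone. The part of these cells in the values below was not tested, and in a whole tissue fewer cells of a type and less RNA per cell cannot be told apart.

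All of the microRNA processing genes were detected, while the Argonaute genes ranged from bright to not detected. At 12 of the 21 probes the signal was above background on all 12 arrays, and these covered *Drosha*, *Dgcr8*, *Xpo5*, *Dicer1*, *Tarbp2*, *Prkra* and *Ago2*. The 3 probes detected on no array were the only probe of *Ago1* and 1 probe each of *Dicer1* and *Ago4*. *Dicer1* and *Ago4* were detected at other probes, so the single *Ago1* probe does not show that this gene was not expressed. *Ago3* was near the limit at each of its 4 probes, with 8, 7, 5 and 4 of the 12 arrays above background. *Ago4* was above it on 11 and 7 arrays at its other probes. The 16 probes detected on at least 6 arrays, of 9 genes, were compared between the groups, and *Ago1* was left without a comparison.

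**Figure D1:**
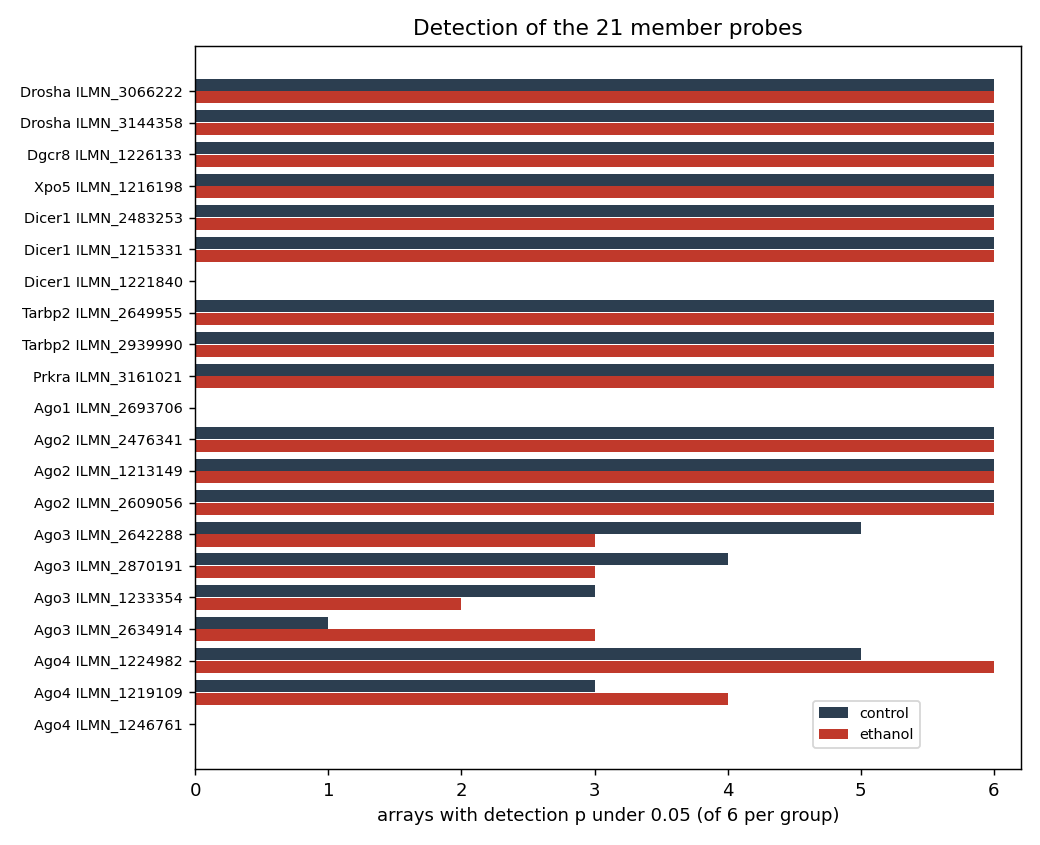
Bars give the number of arrays, of 6 in each group, on which each of the 21 probes was detected (detection p under 0.05). The 12 probes of the processing genes and *Ago2* reach 6 in both groups, the *Ago3* probes lie between 1 and 5, and 3 probes have no bar.

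No difference between ethanol-exposed and control hippocampus was detected beyond the spread between mice at any of the 9 genes compared. Of the 16 probes, 8 were higher and 8 lower in the ethanol group, with a median log2 difference of -0.01, against 0.00 over all probes tested (the difference is the ethanol mean minus the control mean of log2 normalized signal). In limma, 0 of the 16 passed an unadjusted p of 0.05, the lowest being 0.0503 at the *Ago3* probe ILMN_2870191. An adjusted p of 0.05 was passed by 0 (Benjamini-Hochberg, lowest 0.759). Over all 19288 probes, 1242 (6.44%) passed the unadjusted threshold and 0 (0%) the adjusted one. Of the 1242, 648 were higher and 594 lower, a split that became 147 against 637 when arrays were scaled to a common median. The 95% intervals of the member probes reached from -0.63 to 0.48, a fold of 0.645 to 1.39. At 14 of the 16 the interval stayed within a 1.5-fold change of signal in either direction. These included *Ago3*, *Ago4* and *Tarbp2* probes near background, where differences were smaller without background correction (-0.08 against -0.19 at *Ago3* ILMN_2642288). At such probes the interval does not bound the change in RNA. The groups overlapped at all 16. Leaving out ethanol replicate 1, 2, 4 or 5 or control replicate 1 or 2 brought 1 probe, of *Ago3* or *Tarbp2*, past the unadjusted threshold. Without each of these mice, 5.47% to 6.64% of all probes passed it.

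**Figure D2:**
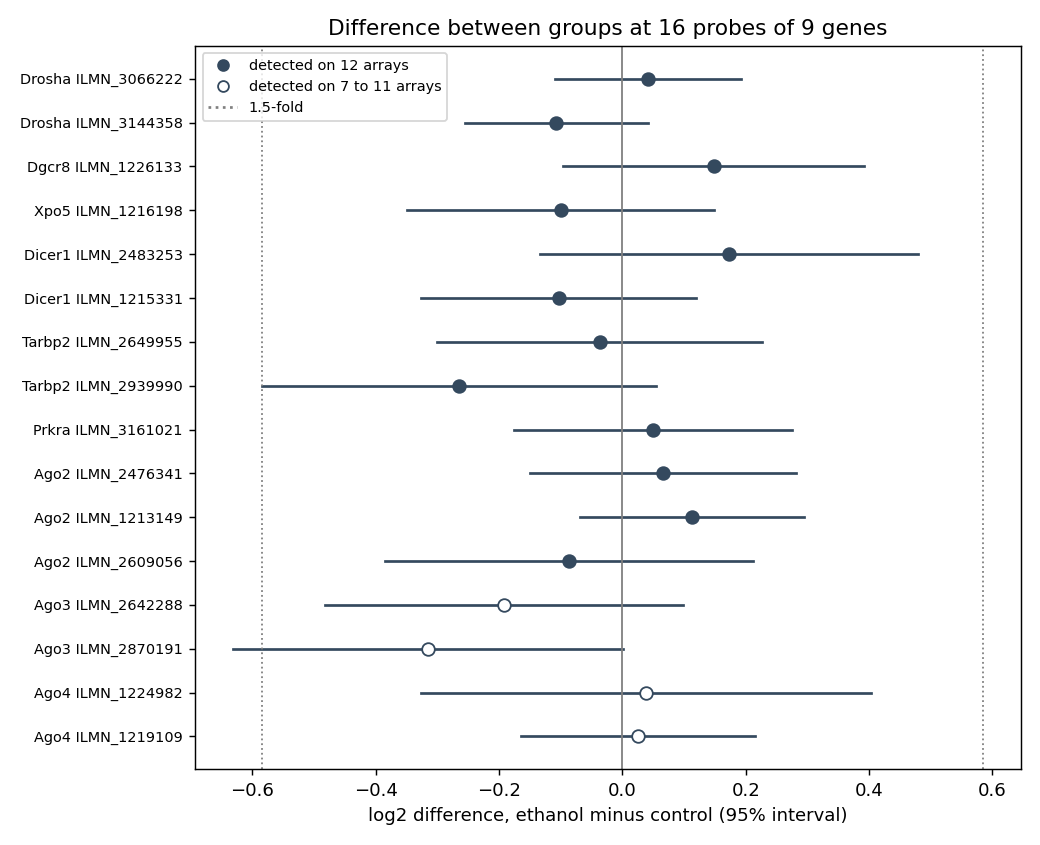
Points give the log2 difference (ethanol minus control) and lines its 95% interval for the 16 probes tested, with dotted lines at a 1.5-fold change. All 16 intervals cross 0, and the lowest estimate is the *Ago3* probe ILMN_2870191 at -0.32.

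The Microprocessor genes had small differences of either sign. *Drosha*, the nuclease, varied little between mice, and only 4.41% and 3.23% of all probes tested had a smaller spread within groups than its probes. These shares were not matched for brightness. At the brighter probe (ILMN_3066222) log2 signals ran from 10.47 to 10.74 (median 10.54) in ethanol-exposed mice and from 10.42 to 10.65 (median 10.51) in controls, a difference of 0.04 ± 0.07 (SE; limma adjusted p = 0.928). The ranges overlapped in part. At the second probe (ILMN_3144358) they ran from 8.90 to 9.13 (median 8.97) and from 9.01 to 9.16 (median 9.11), a difference of -0.11 ± 0.07 (adjusted p = 0.788; two-sided exact permutation p = 0.0671). Here 5 of 6 ethanol-exposed mice were below the control median. The 3 on chip 2 were below every control, as was replicate 3 on chip 1 (9.006, against 9.012 in the lowest control). The difference was 0.0019 on chip 1 and -0.22 on chip 2.

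*Dgcr8*, the partner that recognises the hairpin, had signals of 7.20 to 7.73 (median 7.57) in ethanol-exposed mice and of 7.13 to 7.71 (median 7.34) in controls. The difference was 0.15 ± 0.11 (adjusted p = 0.823; exact permutation p = 0.240), and 5 of 6 exposed mice were above the control median. The export receptor gene *Xpo5* ran the other way, with 7.48 to 8.01 (median 7.76) against 7.51 to 8.11 (median 7.84), a difference of -0.10 ± 0.12 (adjusted p = 0.883; exact permutation p = 0.424). Leaving out 1 mouse moved it between -0.05 (without control replicate 1) and -0.17 (without control replicate 3). Both genes had ranges that overlapped nearly in full.

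**Figure D3:**
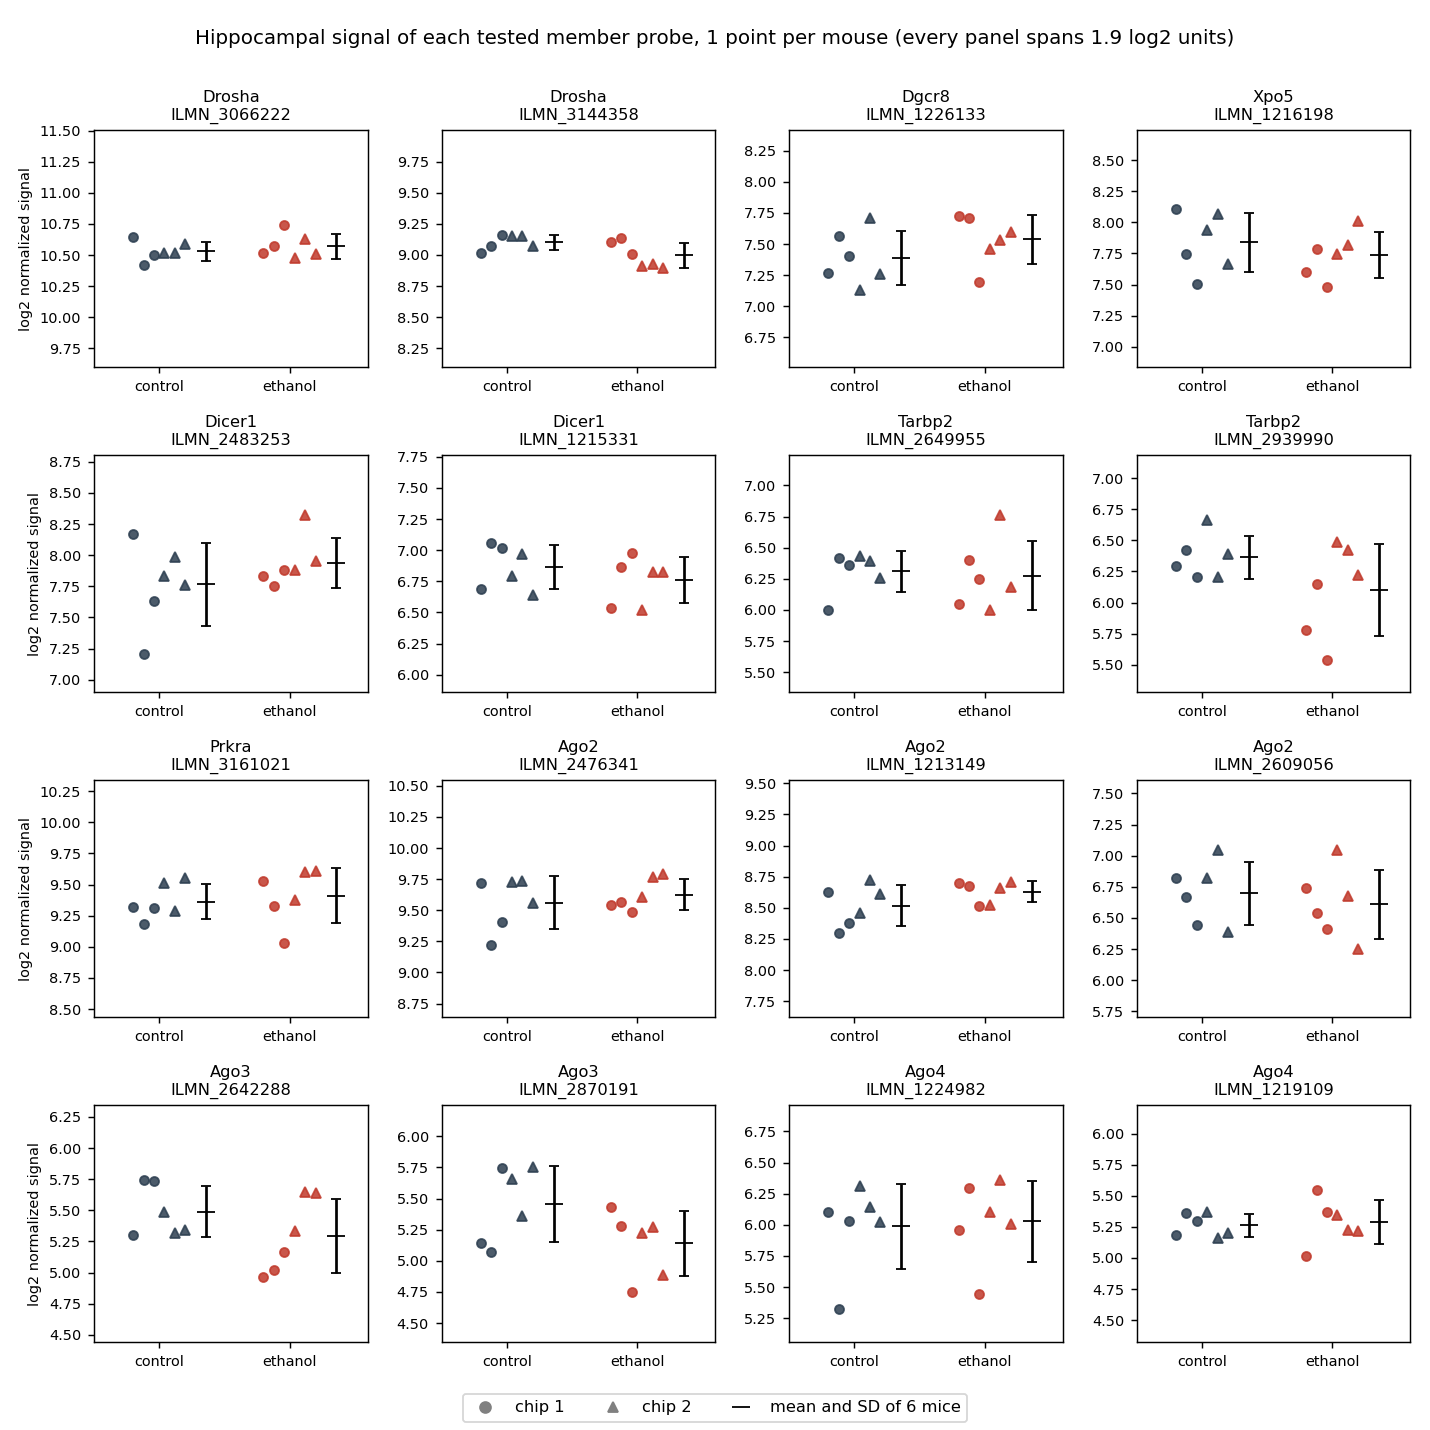
Each panel shows 1 of the 16 probes, with the log2 normalized signal of each mouse (circles chip 1, triangles chip 2) and the mean ± SD of the 6 mice in each group. All panels span the same number of log2 units, and the groups overlap in every panel.

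*Dicer1*, the cytoplasmic nuclease, gave differences of opposite sign at its probes. At ILMN_2483253 signals ran from 7.76 to 8.32 (median 7.88) in ethanol-exposed mice and from 7.20 to 8.17 (median 7.80) in controls, and the difference was 0.17 ± 0.14 (adjusted p = 0.827; exact permutation p = 0.314). The controls spanned the wider range, with replicate 2 lowest. The difference was 0.06 without that mouse and 0.10 without ethanol replicate 5, the highest of the exposed mice. At ILMN_1215331 they ran from 6.52 to 6.98 (median 6.83) and from 6.64 to 7.06 (median 6.88), a difference of -0.10 ± 0.10 (adjusted p = 0.861; exact permutation p = 0.346). The remaining probe, ILMN_1221840, was not detected on any array.

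The Dicer partner genes *Tarbp2* and *Prkra* were detected on all 12 arrays. *Tarbp2* had signals of 6.00 to 6.76 (median 6.22) in ethanol-exposed mice and of 6.00 to 6.43 (median 6.37) in controls at ILMN_2649955, with a difference of -0.04 ± 0.12 (adjusted p = 0.967). At ILMN_2939990 they were 5.54 to 6.48 (median 6.19) and 6.21 to 6.66 (median 6.34), a difference of -0.27 ± 0.15 (adjusted p = 0.771; exact permutation p = 0.160). The lowest 3 values were the 3 ethanol-exposed mice of chip 1, and the difference was -0.49 on chip 1 and -0.04 on chip 2. It passed an unadjusted p of 0.05 without ethanol replicate 4 or 5 (-0.34 and -0.33), and was -0.15 without ethanol replicate 3. *Prkra*, whose protein also activates the kinase Pkr, had 9.03 to 9.61 (median 9.45) against 9.18 to 9.55 (median 9.32), a difference of 0.05 ± 0.11 (adjusted p = 0.943; exact permutation p = 0.652).

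The Argonaute genes included the lowest estimate, at *Ago3*, which did not pass the test. *Ago2*, the slicer, was detected throughout. At ILMN_2476341 it ran from 9.48 to 9.79 (median 9.59) in ethanol-exposed mice, the controls from 9.22 to 9.73 (median 9.64), a difference of 0.07 ± 0.10 (adjusted p = 0.919). At ILMN_1213149 the difference was 0.11 ± 0.08 (adjusted p = 0.816) and at ILMN_2609056 it was -0.09 ± 0.14 (adjusted p = 0.924), so that the signs differed between probes of this gene as well.

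*Ago3* at ILMN_2870191 ran from 4.75 to 5.43 (median 5.25) in ethanol-exposed mice and from 5.07 to 5.76 (median 5.51) in controls. The difference was -0.32 ± 0.15, a fold of 0.803 with a 95% interval of 0.645 to 1.00. Limma gave p = 0.0503 before and 0.759 after adjustment, and the exact permutation test p = 0.0823. All 6 exposed mice were below the control median, while 3 of the controls lay within their range, and the probe was above background in 3 exposed and 4 control mice. It passed an unadjusted p of 0.05 with median scaling and with array weights (-0.34 and -0.32), and without ethanol replicate 1 or 2 (-0.37 and -0.34) or control replicate 1 or 2 (-0.38 and -0.39). The difference was -0.13 without background correction, -0.13 in the authors' quantile normalized values and -0.17 with an offset of 50. It passed under none of these, so its size depended on the background correction. It did not pass without any of the other 8 mice (nearest to 0 at -0.24, without ethanol replicate 3), and it was -0.17 on chip 1 and -0.46 on chip 2. At ILMN_2642288 the ranges were 4.97 to 5.65 (median 5.25) and 5.30 to 5.74 (median 5.42), with a difference of -0.19 ± 0.14 (adjusted p = 0.806; exact permutation p = 0.214). It was -0.54 on chip 1, where the 3 exposed mice lay below the 3 controls, and 0.16 on chip 2. The probes detected on fewer than 6 arrays pointed both ways, with a difference of -0.07 (95% interval -0.36 to 0.23) at ILMN_1233354 and of 0.24 (-0.04 to 0.52) at ILMN_2634914 when the filter was left out. The last was detected in 3 exposed and 1 control mice.

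*Ago4* had the widest spread within groups of the 16 probes at ILMN_1224982 (SD 0.334; 90.1% of all probes tested had less). Ethanol-exposed mice had signals of 5.45 to 6.36 (median 6.05) and controls of 5.33 to 6.31 (median 6.07), with a difference of 0.04 ± 0.17 (adjusted p = 0.976; -0.01 with arrays scaled to a common median). At ILMN_1219109 the difference was 0.03 ± 0.09 (adjusted p = 0.969). *Ago1* stayed below detection, with log2 signals of 4.47 to 4.92 in exposed mice and 4.56 to 4.74 in controls at its only probe.

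Signals of probes of the same gene were weakly related from mouse to mouse, with 1 exception. For each gene with several probes tested, and for the brightest probe of each pair of genes, 44 correlations were computed over the 12 mice. Among the 8 pairs of probes within a gene, Pearson's r was above 0 for 5. It was highest for the *Ago2* probes ILMN_2476341 and ILMN_1213149 (r = 0.73, permutation p = 0.00692, adjusted over the 44 pairs p = 0.107; 0.45 without the 2 mice farthest from the median) and lowest for the *Dicer1* pair (r = -0.36, permutation p = 0.250). The *Drosha* pair gave -0.20, the *Tarbp2* pair 0.27, the *Ago3* pair 0.07 and the *Ago4* pair -0.06. Where the probes lie on the transcripts was not used here.

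Across genes, 1 pair of 36 passed the adjusted threshold. *Dicer1* (ILMN_2483253) and *Ago2* (ILMN_2476341) were low and high in the same mice, with r = 0.87 (permutation p = 2e-04, adjusted p = 0.0088) and Spearman's rho = 0.78 (permutation p = 0.00396, adjusted p = 0.108). After the means of group and chip were removed r was 0.86, and it was 0.96 on chip 1 and 0.62 on chip 2. Control replicate 2 was the lowest mouse for both genes (7.20 and 9.22). Without it r was 0.73 and the adjusted permutation p 0.176, without control replicate 3 they were 0.86 and 0.0766, and without the 2 mice farthest from the *Dicer1* median r was 0.72. The other *Dicer1* probe gave r of -0.38, -0.42 and -0.28 with the *Ago2* probes, whereas ILMN_2483253 gave 0.70 and 0.19 with the remaining *Ago2* probes. Among 19287 probes, this *Ago2* probe ranked 7 by its r with *Dicer1*, and the *Dicer1* probe ranked 22 by its r with *Ago2*. This *Ago2* probe also had r of 0.74 with *Ago4*, 0.68 with *Xpo5* and 0.58 with *Prkra* (adjusted permutation p of 0.107, 0.154 and 0.295). With the brightest probes of the other genes tested its r was -0.11 to 0.26. The number of probes detected on an array had r of 0.31 with *Dicer1* and 0.56 with *Ago2*, and its part in the relation was not tested.

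**Figure D4:**
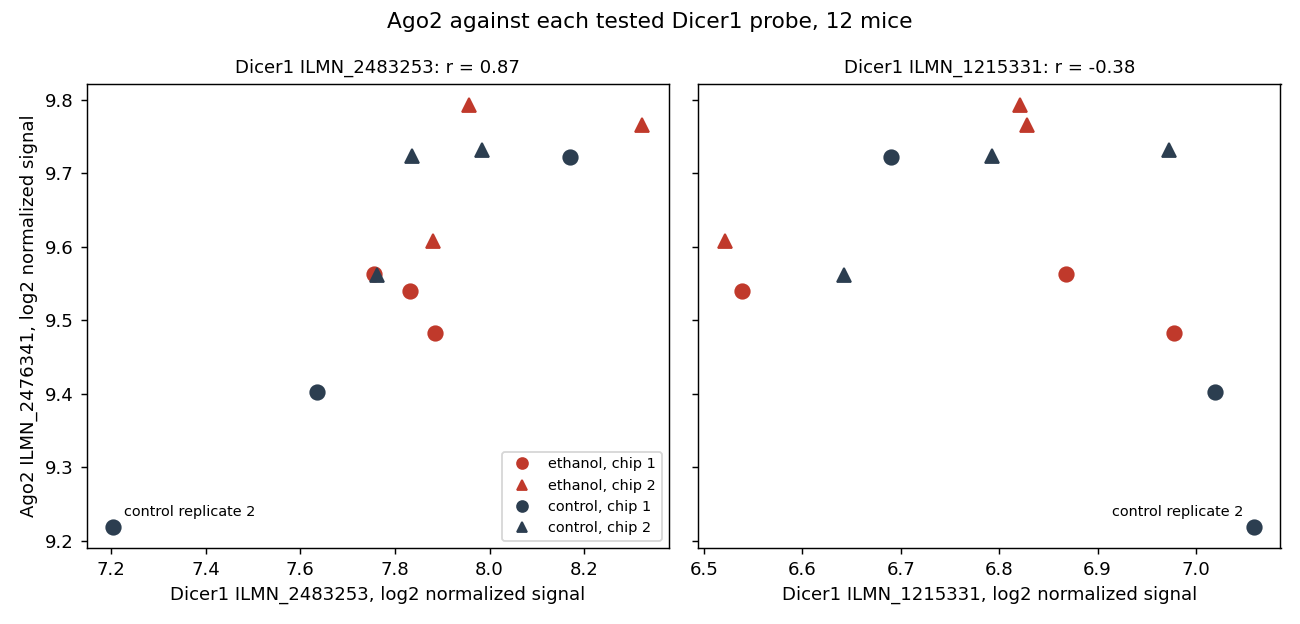
Log2 normalized signal of *Ago2* (ILMN_2476341) against the *Dicer1* probes ILMN_2483253 (left) and ILMN_1215331 (right), 1 point per mouse, coloured by group and shaped by chip. The points rise together on the left (r = 0.87) and do not on the right (r = -0.38), and control replicate 2 is at the lower edge of both panels.

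The genes were also compared between the chips. With group in the model, 11 of the 16 probes were higher on chip 2, with log2 differences (chip 2 minus chip 1) from -0.10 to 0.33, and 0 passed an adjusted p of 0.05 in limma (lowest 0.235). The largest was the *Tarbp2* probe ILMN_2939990 (0.33 ± 0.12, unadjusted p = 0.0191). The background was 86 of 19288 probes (0.446%), 58 higher and 28 lower on chip 2. With arrays scaled to a common median, 5 of the 16 passed, beside 3826 (19.8%) of all probes, whose median difference between the chips was then 0.20.

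The genes that work with this machinery passed an unadjusted test no more often than all named genes. Of 89 listed, 84 had a probe and 65 were tested at their brightest probe, where 41 were higher and 24 lower in the ethanol group, with a median log2 difference of 0.03 (0.01 over the 10835 named genes tested). An unadjusted p of 0.05 was passed by 2 of the 65, or 3.08%, against 705 (6.51%) of the named genes, and an adjusted one by 0 (limma). The 2 became 1 without ethanol replicate 2, 5 without ethanol replicate 6 or control replicate 4, and 4 without control replicate 1. Of all probes tested, 5.47% passed without ethanol replicate 2 and 8.49% without ethanol replicate 6. The share was 6.1% without control replicate 4 and 5.72% without control replicate 1. Both genes past the threshold with all 12 mice stood in the longest list, with 24 genes tested (2 of 24, 8.33%), the Argonaute effectors. These are the proteins that Argonaute brings to a target to shorten its poly(A) tail and remove its cap.

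*Cnot9*, a subunit of the CCR4-NOT deadenylase that contacts the GW182 proteins, had signals of 7.70 to 7.92 (median 7.77) in ethanol-exposed mice and of 7.44 to 7.72 (median 7.55) in controls. The difference was 0.22 ± 0.07 (exact permutation p = 0.00649; limma p = 0.00848 before and 0.720 after adjustment), and all 6 exposed mice were above the control median. *Cnot6l*, a catalytic subunit of the same complex, had 6.44 to 6.69 (median 6.54) against 6.59 to 7.01 (median 6.72), a difference of -0.19 ± 0.08 (unadjusted p = 0.0324, adjusted p = 0.753). Its other probe (ILMN_2642671) had a difference of 0.20 ± 0.08 (unadjusted p = 0.0218, adjusted p = 0.720), so the direction for *Cnot6l* is not settled by these arrays. The GW182 genes *Tnrc6a*, *Tnrc6b* and *Tnrc6c*, named here after their values were seen, had differences of 0.01, -0.22 and 0.02.

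In the other lists no gene passed an unadjusted p of 0.05 in limma. *Trim32*, a ubiquitin ligase known to bind Argonaute, had a difference of 0.14 ± 0.07 and is named after its values were seen. Its limma p was 0.0659 before and 0.759 after adjustment, and its exact permutation p, not adjusted for the genes listed, was 0.0195. Of the Microprocessor partners, 11 of 15 were higher (median 0.03), with *Ddx5*, an RNA helicase of the complex, farthest from 0 (0.22 ± 0.12, adjusted p = 0.771). The 10 partners of Dicer and of Argonaute loading were all within 0.07 of 0, and *Adarb1*, an adenosine deaminase that edits double-stranded RNA, was farthest (0.07 ± 0.07, adjusted p = 0.872). Of the tailing and decay genes 5 of 12 were tested, 3 higher and 2 lower, and the exonuclease gene *Xrn2* was farthest (-0.27 ± 0.15, adjusted p = 0.771). Of 9 RNA-binding proteins associated with Argonaute 4 were higher and 5 lower, and *Fxr1*, a relative of the fragile X gene, was farthest (0.26 ± 0.13, adjusted p = 0.759). Of the 8 Piwi pathway genes, known for the germ line, *Ddx4* and *Piwil1* could be tested, with differences of 0.11 and -0.01.

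**Figure D5:**
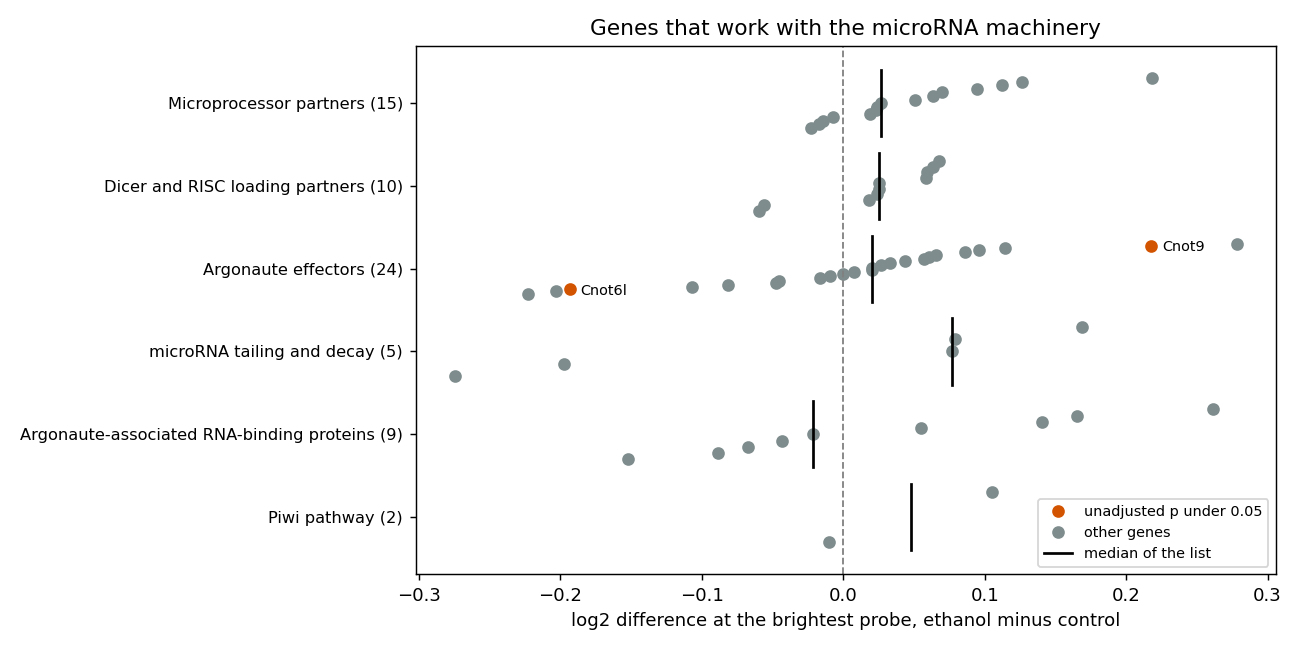
Each point is 1 gene at its brightest probe, placed by its log2 difference (ethanol minus control), in 6 lists with the number of genes tested in brackets. Orange points passed an unadjusted p of 0.05 (*Cnot9* at 0.22 and *Cnot6l* at -0.19), and the bars mark list medians of -0.02 to 0.08.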

How the data were processed

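Total RNA was labelled and hybridised by the authors and the beads summarised in GenomeStudio 1.9.0. The deposited table holds linear intensity per probe before normalization, and a deposited detection p-value per probe and array. The authors' second table, quantile normalized intensity, lay within 0.956% of quantile normalization of the first and served as an alternative. Intensities were corrected with limma 3.58.1 (R 4.3.3; normexp from detection p-values, offset 16), then quantile normalized, and log2 was taken. This differs from the authors' processing by the background correction. Of 45281 probes, 34885 carried 1 symbol, 18 several and 10378 none. Probes detected (p under 0.05) on at least 6 arrays were fitted on group, with Benjamini-Hochberg adjustment over all 19288. Exact permutation tests, planned for the member probes only, covered all 924 assignments (smallest p 0.00216). Correlations were planned as a description after removal of group and chip, and p-values from 100000 permutations were added later. Named genes were all members and, per list, up to 4 genes with an unadjusted p under 0.05 at the brightest probe, or else the gene with the largest difference. The genes and lists were chosen with earlier results of these data known. Of the procedures, the limma group fit was tested on simulated data with known changes. Alternatives were other backgrounds, scalings and filters, chip and replicate blocks, single chips, array weights and leaving out each mouse. Some genes of the lists are not reported here.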

Additional observations from a re-analysis of the deposited data

Results flagged for a closer look

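In 32 sets of 6 mice (16 probes in each group), 2 had a mouse whose gap to the next was large for the range of its group, and chance marks about 1 set in 20. Ethanol replicate 5 had a *Dicer1* signal (ILMN_2483253) of 8.323 on the log2 scale, where the other 5 exposed mice ran from 7.756 to 7.957. Control replicate 2 had an *Ago4* signal (ILMN_1224982) of 5.325, where the other 5 controls ran from 6.026 to 6.312.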

How the results depend on the processing

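Of 172 values of single probes under 11 alternatives, 160 kept their direction and side of an unadjusted p of 0.05, 5 reversed and 7 passed it. Changing the filter or adding the chip or replicate block cannot change a difference in this balanced design. Under these alternatives only the p could move, so a kept direction there shows nothing. Of 192 without 1 mouse, 179 kept both, 7 reversed and 6 passed it. The reversals were *Drosha* ILMN_3066222 (-0.0021, chip 2 alone), *Drosha* ILMN_3144358 (0.0019, chip 1 alone), *Ago3* ILMN_2642288 (0.157, chip 2 alone) and *Ago4* ILMN_1224982 (-0.0101 with median scaling, -0.0045 on chip 2 alone). Without 1 mouse the differences ran from -0.134 to 0.019 for *Tarbp2* ILMN_2649955, from -0.0030 to 0.0996 for *Ago2* ILMN_2476341, from -0.0941 to 0.155 for *Ago4* ILMN_1224982 and from -0.0267 to 0.0793 for *Ago4* ILMN_1219109. The cause was not tested.

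The number of member probes past an unadjusted p of 0.05, 0 in the report, was 1 with median scaling (4.06% of all probes passed), 1 without a filter (5.47%), 1 with array weights (6.82%), 2 on chip 1 alone (8.58%) and 1 on chip 2 alone (4.75%). Without 1 mouse it was 0 to 1, while 5.47% to 8.49% of all probes passed. *Ago3* ILMN_2870191 was the probe under median scaling (-0.342), without a filter, with array weights and on chip 2 alone (-0.463, against -0.168 on chip 1). It also passed without ethanol replicate 1 or 2 or control replicate 1 or 2 (-0.344 to -0.392), and *Tarbp2* ILMN_2939990 passed without ethanol replicate 4 or 5 (-0.342 and -0.329). On chip 1 alone *Ago3* ILMN_2642288 (-0.542) and *Tarbp2* ILMN_2939990 (-0.487) passed. The groups share replicate numbers, but arrays of the same number had correlations of -0.0178 to 0.210 and 2 of 6 ethanol arrays were closest to their own number, so the numbers were not taken as pairs. With the replicate block 1 member probe passed (*Tarbp2* ILMN_2939990, -0.265), and 7.19% of all probes.

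Over all probes the count of 1242 became 784 with median scaling and 2477 without a filter, where more probes were tested. The count in the pathway lists, 2, was 1 with an offset of 50, 5 on chip 1 alone, 1 with array weights and 1 to 5 without 1 mouse (5 without ethanol replicate 6 or control replicate 4). Of all probes, 6.61% passed with that offset, 8.58% on chip 1 alone, 6.82% with array weights and 5.47% to 8.49% without 1 mouse. Without background correction the number of probes past a fold of 1.5 and an unadjusted p of 0.05 fell from 25 to 5. The member probes past an adjusted p between chips, 0 in the report, were 5 with median scaling, where 19.8% of all probes passed. The correlation of *Dicer1* with *Ago2*, examined under settings chosen after seeing the data, was 0.861 to 0.917 under other processing and 0.732 to 0.900 without 1 mouse, with adjusted p of 0.176 and 0.0766 without control replicate 2 and 3. The *Ago3* and *Ago4* probes and *Tarbp2* lay near background, which limits what their differences show.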
